A study of Mus musculus with 11 samples.

Results

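The RANK, CD40 and noncanonical NF-kB axis was followed here as 9 genes: the receptors Tnfrsf11a (RANK), Cd40 and Ltbr, the decoy receptor Tnfrsf11b (osteoprotegerin), the adaptors Traf6 and Traf3, the kinase Map3k14 (NIK), and the transcription factor genes Relb and Nfkb2. They are the rows of the count table whose Ensembl identifiers carry these symbols, and all 9 were found among the 56691 genes of the table. RNA sequencing was done on 11 libraries of thymic epithelial cells from NOD mice, a strain prone to autoimmune diabetes, aged 4 to 8 weeks. The mice carried 2 wild-type Aire alleles (WT/WT, 3 libraries), 1 wild-type allele and 1 allele with R249C, which changes an amino acid of the SAND domain (WT/R249C, 5 libraries), or 2 variant alleles (R249C/R249C, 3 libraries). Every group was depleted of CD45-bearing cells with magnetic beads and sorted for EpCAM, and the number of mice behind a library is not stated.

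In the thymic medulla, lymphocytes and lymphoid tissue inducer cells present RANK ligand, CD40 ligand and lymphotoxin to epithelial cells. Without a signal, TRAF3 keeps the kinase NIK at a low level by directing its degradation. An engaged receptor draws TRAF3 away, NIK accumulates and drives the processing of the p100 product of Nfkb2 to p52, and p52 enters the nucleus with RelB. This route is known to be needed for the maturation of medullary epithelial cells and for their expression of Aire. TRAF6 carries the signal of RANK and CD40 to the canonical NF-kB pathway, and osteoprotegerin is a soluble receptor that captures RANK ligand.

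Nfkb2 is known as a gene under NF-kB control, and its upstream sequence is shown here, with that of Traf3 and Tnfrsf11a, to give the letters behind 3 members at different steps of the route. The windows are the 250 bases before a transcription start, from RefSeq on GRCm38.p6, on the gene's strand, 5′ to 3′, with matches to the NF-kB consensus in capitals.
Nfkb2, chr19:46304487-46304736, plus strand: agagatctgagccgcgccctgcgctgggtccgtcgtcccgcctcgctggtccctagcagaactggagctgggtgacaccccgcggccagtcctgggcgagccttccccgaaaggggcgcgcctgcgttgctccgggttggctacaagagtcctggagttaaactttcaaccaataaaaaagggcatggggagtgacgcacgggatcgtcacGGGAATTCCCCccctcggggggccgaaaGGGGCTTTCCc
Traf3, chr12:111166120-111166369, plus strand: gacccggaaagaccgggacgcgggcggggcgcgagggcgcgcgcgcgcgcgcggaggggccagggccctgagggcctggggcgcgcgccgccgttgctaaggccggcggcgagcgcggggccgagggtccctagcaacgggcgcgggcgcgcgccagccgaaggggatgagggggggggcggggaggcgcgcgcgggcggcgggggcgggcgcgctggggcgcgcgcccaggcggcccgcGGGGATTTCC
Tnfrsf11a, chr1:105780473-105780722, plus strand: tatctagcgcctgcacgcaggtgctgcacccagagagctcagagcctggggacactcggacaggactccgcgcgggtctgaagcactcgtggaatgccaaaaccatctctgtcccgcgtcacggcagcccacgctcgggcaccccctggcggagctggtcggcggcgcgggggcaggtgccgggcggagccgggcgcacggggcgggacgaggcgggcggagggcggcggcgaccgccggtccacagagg
The Nfkb2 window held the palindrome GGGAATTCCC at 39 to 30 bases before the start, overlapped by a match of the other strand, GGAATTCCCC, at 38 to 29 bases, and GGGGCTTTCC at 11 to 2 bases. The Traf3 window held GGGGATTTCC in its last 10 bases, and the Tnfrsf11a window held no match. Searched on both strands, the consensus occurred in 3.90% of 32851 windows of the same length. Promoter entries were found for 6 of the 9 members, all but Cd40, Relb and Tnfrsf11b, and 2 of the 6, Nfkb2 and Traf3, held a consensus match in any of their windows, as did 4.46% of all 27025 genes. Nfkb2 has 3 windows in the table, of which the first is printed, and each held a match, while the other 5 members have 1 window each. A match describes the letters of a window and does not show that a factor binds there.

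Libraries were made in 2 batches named in the labels. Batch A took in all 3 R249C/R249C libraries, 3 of WT/R249C and 1 of WT/WT, and batch B the other 2 of WT/WT with WT/R249C replicates 4 and 5. Those last replicates are heterozygous by title but homozygous by their genotype field. The title was followed, and no member was called when they were left out or counted as R249C/R249C. Totals ran from 60560348 to 182319976 counts, and the fewest counts for a member in a library were 871, for Ltbr in WT/R249C replicate 3. The epithelial marker and sort antigen gene Epcam was present in every library at 355 to 521 CPM (a gene's counts over the library's total, times 1000000). Ptprc, which encodes CD45, ran from 0.217 to 26.2 CPM.

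WT/R249C replicate 2 and R249C/R249C replicate 2, both of batch A, stood apart from the other 9 libraries in these genes. The 9 members summed to 546 CPM in the first and 597 CPM in the second, against 854 to 1410 CPM elsewhere. In each of them 7 of the 9 members were among their own 3 lowest libraries, and the median member was at 0.583 and 0.620 of its median over all libraries. The same libraries had the highest sums of the 6 endothelial markers, 279 and 194 CPM, with Pecam1 at 111 and 65.9 CPM. WT/R249C replicate 2 also had the highest sum of the 10 immature medullary markers, at 6263 CPM. Of the 12 mature medullary markers, 8 were among their own 3 lowest libraries in WT/R249C replicate 2 and 7 in R249C/R249C replicate 2, and also 8 in WT/WT replicate 1. In WT/R249C replicate 2 the levels of Aire (174 CPM), Cd80 (4.47 CPM), Fezf2 (101 CPM), Ccl22 (11.5 CPM), Cd52 (14.6 CPM) and H2-Ab1 (5427 CPM) were the lowest of all 11 libraries, and in R249C/R249C replicate 2 Aire stood at 318 CPM, Cd80 at 11.6 CPM and Fezf2 at 192 CPM. The sums of the list, 29915 and 30267 CPM, come mostly from Cd74 and H2-Ab1 and lay within the range of the other libraries. The part of these markers in the low levels was not tested. WT/WT replicate 3 stood at the other end, with 8 of the 9 members among their 3 highest values, followed by WT/R249C replicate 3 with 6.

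**Figure D1:**
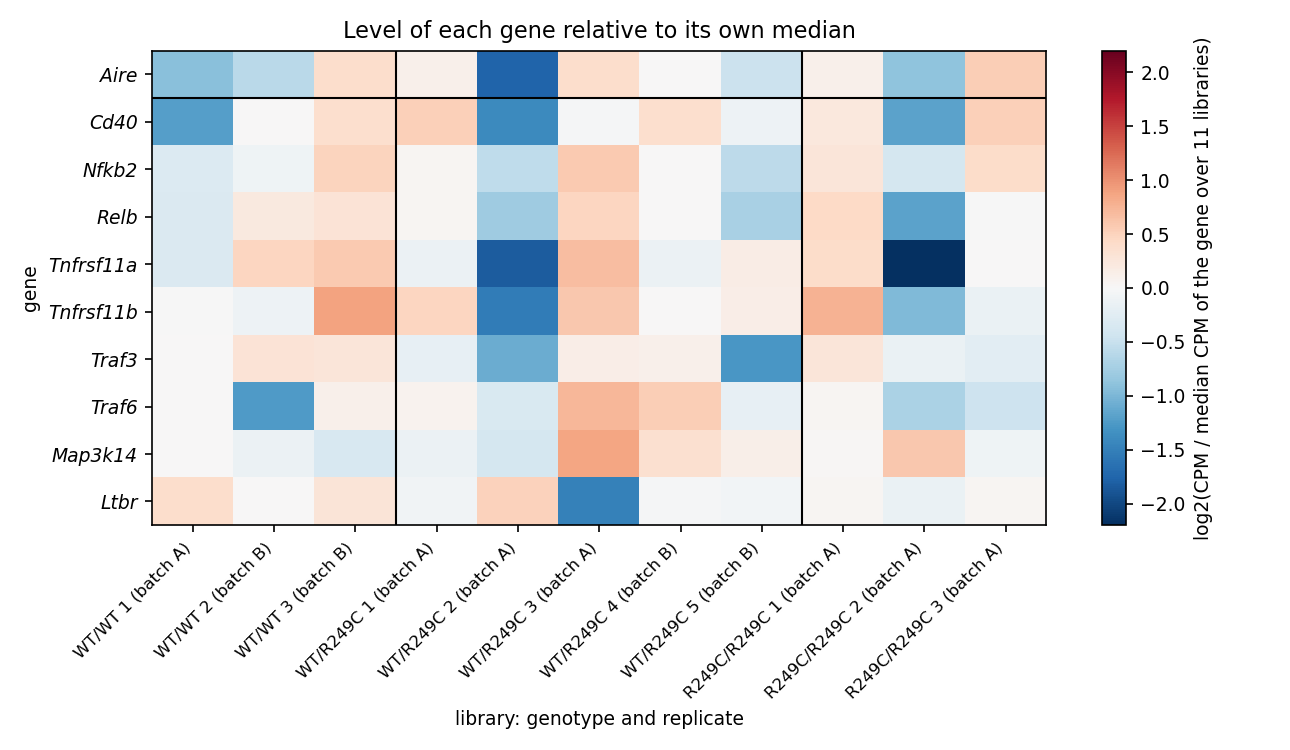
Level of Aire and of the 9 members (rows) in each of the 11 libraries (columns, ordered by genotype with the batch in brackets), as log2 of the CPM over the gene's median of 11 libraries. Blue marks low and red marks high levels; the columns of WT/R249C replicate 2 and R249C/R249C replicate 2 are blue in most rows, with the deepest blue for Tnfrsf11a, and Ltbr is lowest in WT/R249C replicate 3.

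None of the 9 genes differed between Aire genotypes beyond the spread between libraries. All 9 passed the filter on low counts, and edgeR's quasi-likelihood test with Benjamini-Hochberg adjustment over all genes called 0 of 9 in each of the 3 genotype comparisons. The background share of all genes called by that test was 0% in each comparison, of 26980 genes for both contrasts with WT/WT and of 23695 genes for R249C/R249C against WT/R249C. At an unadjusted p under 0.05 it was 3.21% of genes for R249C/R249C against WT/WT, 3.48% for WT/R249C against WT/WT and 1.08% for R249C/R249C against WT/R249C, and 0 of the 9 members. DESeq2 called 1.51%, 1.02% and 0.139% of genes in these comparisons and limma 0 genes, with 0 members in each. Group ranges of CPM did not overlap for 8.1%, 2.93% and 8.85% of genes and for 0 of 9 members. The members' median log2 fold change in the same order of comparisons was -0.10, -0.17 and 0.05, beside -0.02, 0.02 and 0.01 over all genes tested. In bulk samples, fewer cells of a type and less RNA per cell cannot be told apart.

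**Figure D2:**
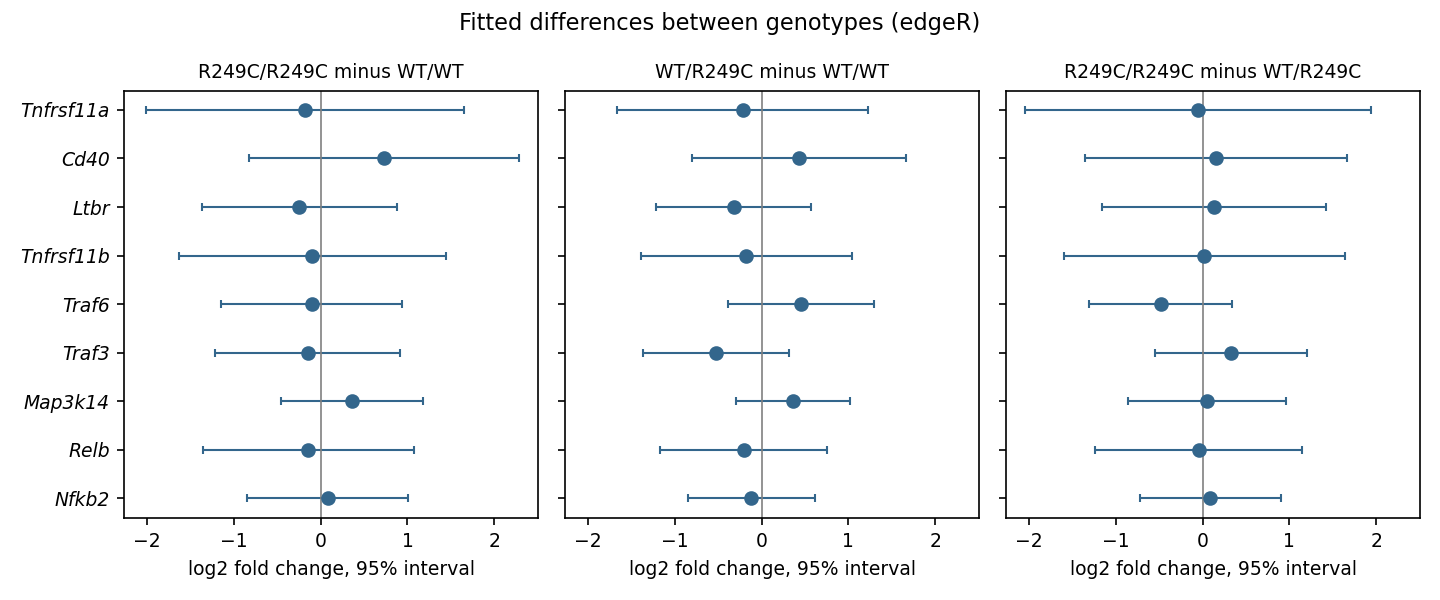
Fitted log2 fold change (horizontal axis; point) with its 95% interval (bar) from edgeR for each of the 9 members (rows) in the 3 genotype comparisons (panels). Every interval spans 0, and the widest are those of Tnfrsf11a, from -2.01 to 1.65 for R249C/R249C against WT/WT.

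Tnfsf11, which encodes RANK ligand, was at 0 counts in 9 of 11 libraries, and reached 0.450 CPM in WT/R249C replicate 1 and 0.0494 CPM in WT/WT replicate 3. Cd40lg, which encodes CD40 ligand, had 0 counts in all 11 libraries, which allows up to 0.0165 CPM in the deepest library and up to 0.0495 CPM in the shallowest. Ltb, a subunit of the lymphotoxin that engages the lymphotoxin beta receptor, was present in every library at 12.3 to 80.5 CPM, lowest in WT/R249C replicate 2.

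Among the receptors, Tnfrsf11a varied most between libraries. RANK, its product, is the receptor of RANK ligand. It was at 54.5, 94.4 and 102 CPM in WT/WT, at 62.7, 19.2, 109, 62.0 and 76.3 CPM in WT/R249C and at 90.1, 14.8 and 68.2 CPM in R249C/R249C replicates 1 to 3. The 3 ranges overlapped, and the values of 19.2 and 14.8 CPM were those of the replicate 2 libraries described above, so that the highest library was 7.33-fold above the lowest. The mean was 83.6 ± 25.4 CPM for WT/WT (SD, n = 3), 65.8 ± 32.2 CPM for WT/R249C (n = 5) and 57.7 ± 38.7 CPM for R249C/R249C (n = 3). The log2 fold change from edgeR against WT/WT was -0.18 for R249C/R249C (95% interval -2.01 to 1.65) and -0.22 for WT/R249C (-1.66 to 1.23). Without both low libraries the first was 0.11.

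Cd40 encodes the receptor of CD40 ligand, found on medullary epithelial cells and on B cells. Its levels were 49.9, 116 and 149.7 CPM in WT/WT, 167, 43.7, 114, 149.5 and 108 CPM in WT/R249C and 136, 51.2 and 166 CPM in R249C/R249C. The 3 lowest values came one from each genotype: WT/WT replicate 1 and the replicate 2 libraries of the variant genotypes. Means over the 3, 5 and 3 libraries were 105 ± 50.8, 117 ± 47.6 and 118 ± 59.7 CPM. The fitted log2 fold change against WT/WT was 0.73 (-0.83 to 2.29) for R249C/R249C, with an edgeR adjusted p of 1, and 0.43 (-0.80 to 1.67) for WT/R249C. Within batch A, where the only WT/WT library is the low replicate 1, these were 1.24 and 1.08, and within batch B the second was -7.91e-05. The difference between the batches in this second contrast, -1.03, did not pass the test (edgeR interaction, adjusted p 0.983).

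Since B cells also express Cd40, their markers are given beside it. The 10 B cell markers summed to 1429 to 3029 CPM in WT/WT, to 108 to 491 CPM in WT/R249C and to 271 to 556 CPM in R249C/R249C, most of it from Igkc and Jchain. The defining marker Ms4a1 was at 0 in 6 of 11 libraries and did not exceed 5.18 CPM. Against WT/WT, edgeR and limma called 0 of the 10 in either variant genotype. The fitted edgeR difference was lower for 10 of the 10 in R249C/R249C and for 9 in WT/R249C, with median log2 fold changes of -1.20 and -0.96. At an unadjusted p under 0.05 in edgeR there were 3 for R249C/R249C and 2 for WT/R249C, beside 3.21% and 3.48% of all genes tested. DESeq2 called Igkc and Ms4a1 for R249C/R249C and Igkc for WT/R249C, beside 1.51% and 1.02% of all genes. The WT/WT libraries, of the highest B cell sums, held the second lowest as well as a high Cd40 level. In the 3 libraries of lowest Cd40, the 12 markers of myeloid and dendritic cells summed to 63.5 to 85.2 CPM. Their sum was 52.3 CPM in WT/R249C replicate 3, where Cd40 was at 114 CPM, and 142 to 291 CPM elsewhere. The part of B cells or of myeloid and dendritic cells in the Cd40 levels was not tested.

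Ltbr, the receptor of membrane lymphotoxin and of LIGHT, was the steadiest receptor in R249C/R249C. It stood at 52.9, 40.3 and 49.2 CPM in WT/WT, at 38.0, 57.2, 14.4, 39.6 and 38.7 CPM in WT/R249C and at 41.3, 36.4 and 41.7 CPM in R249C/R249C. Its extremes were both in WT/R249C, with the highest level in replicate 2, a library that was low for most other members, and the lowest in replicate 3, the library of the smallest total. Means were 47.5 ± 6.47, 37.6 ± 15.2 and 39.8 ± 2.96 CPM in the same order. The log2 fold changes against WT/WT were -0.25 (-1.37 to 0.87) for R249C/R249C and -0.32 (-1.21 to 0.57) for WT/R249C.

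Tnfrsf11b was the most abundant member per kilobase of exon. Osteoprotegerin, its product, binds RANK ligand and keeps it from RANK. The gene was at 246, 227 and 454 CPM in WT/WT, at 342, 85.4, 371, 247 and 274 CPM in WT/R249C and at 421, 126 and 224 CPM in R249C/R249C. The replicate 2 libraries of both variant genotypes were again the lowest, and that of WT/R249C was 5.32-fold below WT/WT replicate 3, the highest. Group means were 309 ± 126, 264 ± 112 and 257 ± 150 CPM. Fitted log2 fold changes were -0.09 (-1.64 to 1.45) for R249C/R249C and -0.17 (-1.39 to 1.04) for WT/R249C against WT/WT.

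Of the adaptors, Traf6 was at 62.2, 26.2 and 67.2 CPM in WT/WT, at 65.3, 49.2, 103, 90.1 and 54.7 CPM in WT/R249C and at 64.3, 38.6 and 45.4 CPM in R249C/R249C. The lowest library was WT/WT replicate 2, and the 2 highest were WT/R249C replicates 3 and 4. Its largest fitted differences were in the WT/R249C libraries, with a log2 fold change of 0.46 against WT/WT (-0.39 to 1.30) and of -0.48 (-1.31 to 0.34) for R249C/R249C against WT/R249C. The edgeR p-values were 0.252 and 0.201 before adjustment.

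Traf3, the brake on NIK, was at 46.8, 57.7 and 56.1 CPM in WT/WT, at 41.3, 21.8, 51.5, 50.5 and 19.2 CPM in WT/R249C and at 56.2, 42.2 and 39.9 CPM in R249C/R249C. The lowest 2 libraries were WT/R249C replicates 5 and 2, while the other 3 of that genotype lay at 41.3 to 51.5 CPM, within or near the range of the other groups. The group means were 53.5 ± 5.88, 36.9 ± 15.5 and 46.1 ± 8.85 CPM in the same order. WT/R249C against WT/WT gave a log2 fold change of -0.53 (-1.36 to 0.31), with the smallest unadjusted p of any member, 0.189, and an edgeR adjusted p of 1.

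Map3k14 encodes NIK, whose amount is known to be set mainly through degradation of the protein, which RNA does not show. It was at 34.7, 31.6 and 27.0 CPM in WT/WT, at 31.6, 26.6, 62.9, 44.1 and 37.8 CPM in WT/R249C and at 35.4, 52.1 and 32.7 CPM in R249C/R249C. WT/R249C replicate 3 and R249C/R249C replicate 2 were the highest, and WT/WT lay within the range of WT/R249C. Means were 31.1 ± 3.86, 40.6 ± 14.1 and 40.0 ± 10.5 CPM, and the log2 fold changes against WT/WT were 0.36 (-0.46 to 1.18) for R249C/R249C and 0.36 (-0.30 to 1.01) for WT/R249C. Of its exon bases, 135 overlap 1700028N14Rik on the same strand.

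Relb was at 137, 198 and 210 CPM in WT/WT, at 176, 99.4, 235, 170 and 105 CPM in WT/R249C and at 230, 75.0 and 169 CPM in R249C/R249C. Its lowest values were those of R249C/R249C replicate 2, WT/R249C replicate 2 and WT/R249C replicate 5. The means were 182 ± 39.0, 157 ± 56.5 and 158 ± 77.9 CPM. The fitted log2 fold changes were -0.14 (-1.36 to 1.07) for R249C/R249C and -0.21 (-1.17 to 0.75) for WT/R249C against WT/WT.

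Nfkb2, whose first upstream window holds the consensus matches printed above, was the member with the narrowest range, 2.22-fold from lowest to highest. It was at 170, 198 and 294 CPM in WT/WT, at 217, 143, 313, 210 and 141 CPM in WT/R249C and at 252, 160.5 and 277 CPM in R249C/R249C. Each genotype held both a library near the low end and a library near the high end of this range, so the groups overlapped. The means were 221 ± 65.2, 205 ± 70.4 and 230 ± 61.2 CPM. The log2 fold change was 0.08 (-0.85 to 1.00) for R249C/R249C and -0.12 (-0.85 to 0.61) for WT/R249C against WT/WT. In the annotation up to 18.1% of its exon bases lie opposite AC114539.1 and Psd, where a base opposite both genes was counted for each. The sources used here do not give whether counting used strand.

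**Figure D3:**
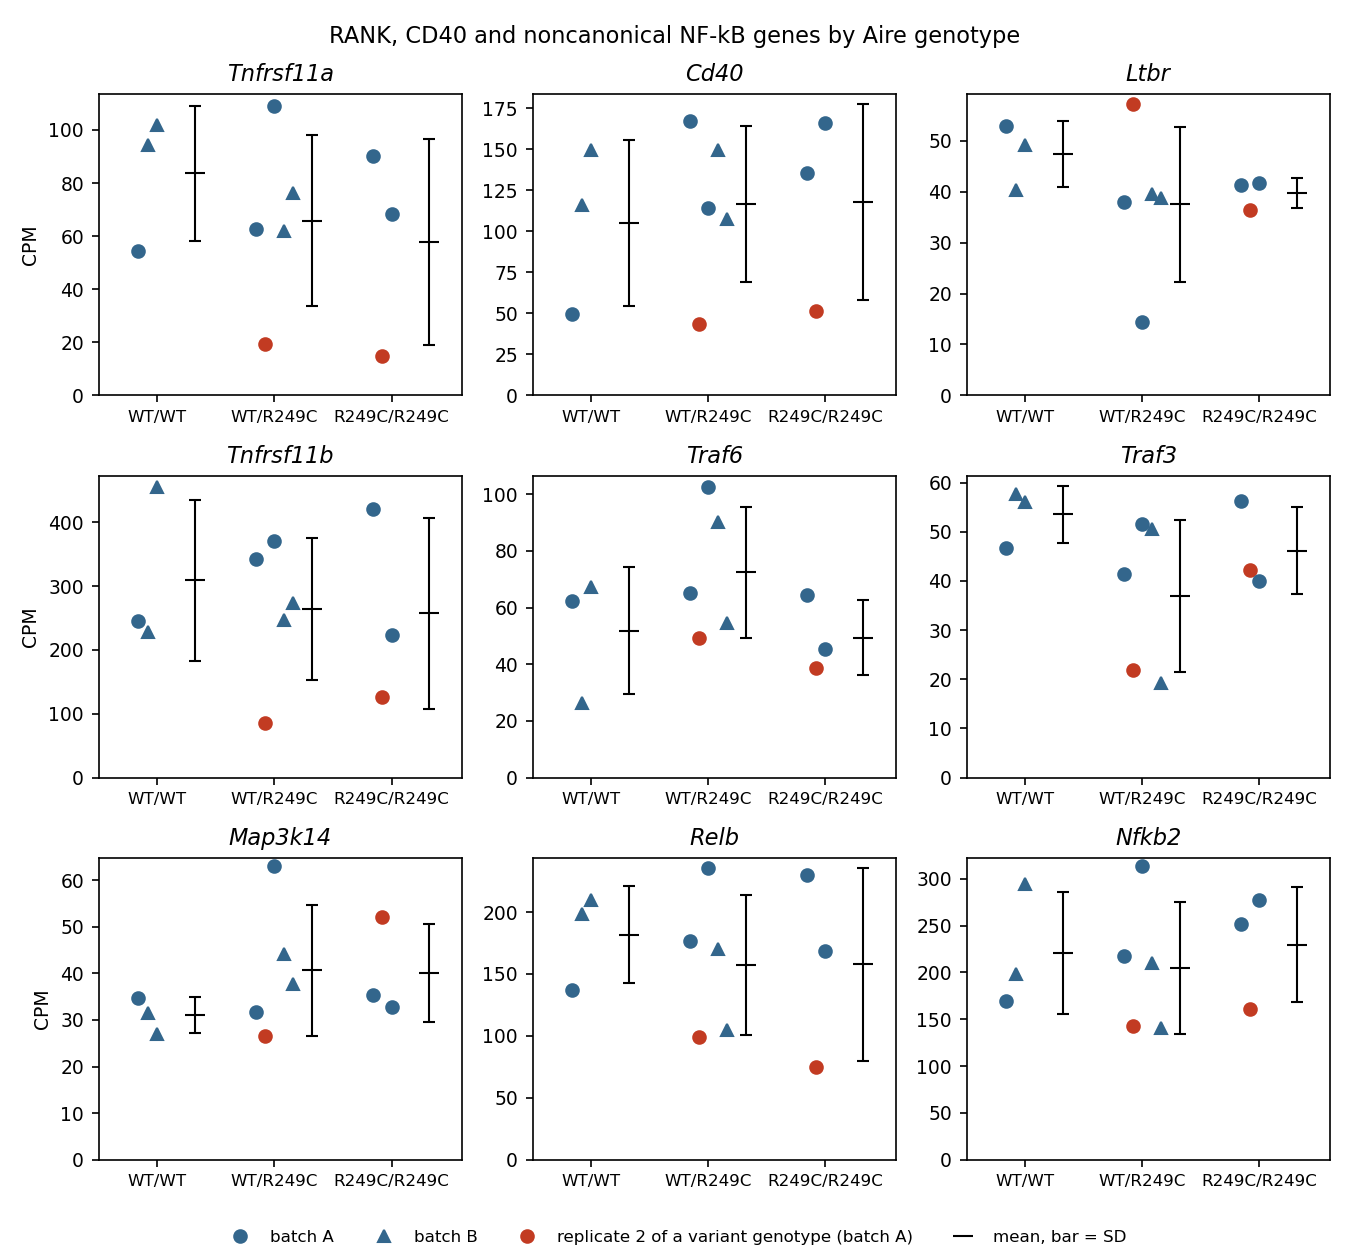
CPM (vertical axis, from 0) of each of the 9 members (panels) in every library, by Aire genotype (horizontal axis). Circles are batch A and triangles batch B, red circles are replicate 2 of the variant genotypes, and the bar at the right of each group is its mean with SD; in Tnfrsf11a, Tnfrsf11b and Cd40 the red circles lie at the bottom of their groups.

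Between the variant genotypes of batch A, the comparison with no contradicting label, the fitted differences were small beside their intervals. The log2 fold change of R249C/R249C against WT/R249C was -0.05 (-2.04 to 1.94) for Tnfrsf11a, 0.16 (-1.36 to 1.67) for Cd40, 0.13 (-1.16 to 1.42) for Ltbr and 0.02 (-1.60 to 1.64) for Tnfrsf11b. It was -0.04 (-1.24 to 1.15) for Relb, 0.09 (-0.72 to 0.90) for Nfkb2, 0.05 (-0.86 to 0.96) for Map3k14 and 0.33 (-0.55 to 1.21) for Traf3. The interval of Nfkb2 was the narrowest of these, and that of Tnfrsf11a the widest.

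No member differed between the batches beyond the spread between libraries. Adjusted for genotype, the log2 difference of batch B from batch A ran from -0.15 for Traf6 to 0.63 (-0.55 to 1.82) for Cd40, and 0 of 9 members were called by edgeR, DESeq2 or limma. The ranges of the batches overlapped for all 9 members and did not overlap for 0.537% of genes. The shares of all genes called were 0% by edgeR and 0.671% by DESeq2, and 3.58% had an unadjusted p under 0.05 in edgeR. Within batch A the differences of WT/R249C from WT/WT ran from -0.54 for Ltbr to 1.08 for Cd40, and those of R249C/R249C from -0.40 for Ltbr to 1.24 for Cd40, beside a median of all genes that lay at 0.40 and 0.20. Within batch B those of WT/R249C ran from -0.66 for Traf3 to 0.69 for Traf6, in the libraries with contradicting labels. R249C/R249C has no library in batch B.

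Compared per kilobase of exon, the members fell into an order that spanned the decoy receptor at the top and the kinase at the bottom. The median over 11 libraries was 87.6 CPM per kilobase for Tnfrsf11b, 45.9 for Nfkb2, 43.9 for Relb and 34.1 for Cd40. It was 17.1 for Ltbr, 11.4 for Tnfrsf11a, 7.89 for Traf6, 6.37 for Traf3 and 5.30 for Map3k14. Tnfrsf11b was above Nfkb2 in 10 of 11 libraries, Nfkb2 above Relb in 9, and Ltbr above Tnfrsf11a in 10. Cd40 was above Ltbr in 8 of 11, Tnfrsf11a above Traf6 in 8, and Traf6 above Traf3 in 9. Relb was above Cd40 in 7 of 11, and Traf3 above Map3k14 in 7 of 11. No pair of neighbours kept its order in all 11 libraries, and the order was not tested. The decoy receptor gene was above that of RANK in 11 of 11 libraries, with a ratio per kilobase from 5.12 in WT/WT replicate 2 to 18.1 in R249C/R249C replicate 2 and a median of 9.44.

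Levels of several members varied together from library to library, and with Aire. Over the 11 libraries, 45 relations were computed on log2(CPM + 1), 36 between members and 9 with Aire, each with a two-sided permutation p from 100000 resamples and Benjamini-Hochberg adjustment over the 45. By Pearson's r 15 passed, 10 between members and 5 with Aire, and by Spearman's rho 3 passed. The share of all gene pairs with such an r was not computed, so these counts do not show a trait of the members. Aire, at 174 to 858 CPM, went with Cd40 (r = 0.89, permutation p = 0.00018, adjusted 0.0069; rho = 0.76, adjusted 0.0762). It also went with Nfkb2 (r = 0.87, permutation p = 0.00037, adjusted 0.0069; rho = 0.87, adjusted 0.0301). The r with Aire was 0.82 for Tnfrsf11b, 0.74 for Tnfrsf11a and 0.73 for Relb, with permutation p-values adjusted to 0.0138, 0.0417 and 0.0417, and their rho did not pass. It was -0.46 for Ltbr, 0.20 for Map3k14, 0.44 for Traf6 and 0.52 for Traf3, none of which passed.

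Between members, Tnfrsf11a went with Tnfrsf11b (r = 0.88, permutation p adjusted 0.0136; rho = 0.72, adjusted 0.0819) and with Relb (r = 0.86, adjusted 0.0069; rho = 0.85, adjusted 0.0301). Relb went with Nfkb2 (r = 0.84, permutation p adjusted 0.00999; rho = 0.83, adjusted 0.0430). The other pairs that passed by r were Tnfrsf11b with Relb (0.79), Cd40 (0.74) and Nfkb2 (0.70), Cd40 with Tnfrsf11a (0.76) and Relb (0.73), and Nfkb2 with Traf3 (0.69). Ltbr and Map3k14 were the 1 pair that passed with a negative sign, at r = -0.82 (permutation p adjusted 0.00999; rho = -0.73, adjusted 0.0808), and without WT/R249C replicates 2 and 3 this r was -0.54 (permutation p = 0.123).

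Without the 2 libraries farthest from the median of the first gene, 4 of the 15 relations had a permutation p under 0.05 before adjustment. The other 11 did not. This step leaves 9 libraries and narrows the range of the first gene, so it cannot tell whether a relation rested on those 2 libraries. Those libraries were in most cases WT/R249C replicate 2 and R249C/R249C replicate 2, and without these 0 of the 45 passed adjustment over the other 9 libraries. Leaving out the farthest 2 took Tnfrsf11a and Tnfrsf11b to r = 0.57 (permutation p = 0.11), Tnfrsf11a and Relb to 0.62 (permutation p = 0.0698) and Tnfrsf11b and Aire to 0.48 (permutation p = 0.188). After the same step Nfkb2 and Aire stood at 0.95 (permutation p = 5e-05), Relb and Nfkb2 at 0.85 (permutation p = 0.00313), Cd40 and Aire at 0.78 (permutation p = 0.00709) and Cd40 and Relb at 0.74 (permutation p = 0.0404). The rank correlation of Cd40 and Relb went from 0.53 to 0.22 in that step, and without both replicate 2 libraries their r was 0.40 (permutation p adjusted 0.589). Without those 2 libraries r was 0.85 for Nfkb2 and Aire, 0.85 for Relb and Nfkb2 and 0.79 for Cd40 and Aire, with permutation p-values adjusted to 0.0790, 0.0790 and 0.0823. Within the 7 libraries of batch A 2 relations passed, Tnfrsf11a with Relb (r = 0.98, permutation p adjusted 0.0198) and Nfkb2 with Aire (r = 0.95, permutation p adjusted 0.0301), and the 4 libraries of batch B are too few. On residuals after the batch mean, over all 11 libraries, 17 passed by r and 12 by rho. The libraries share a sort and a normalization to their totals, and the part of the medullary or other cells in each library in these relations was not tested.

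**Figure D4:**
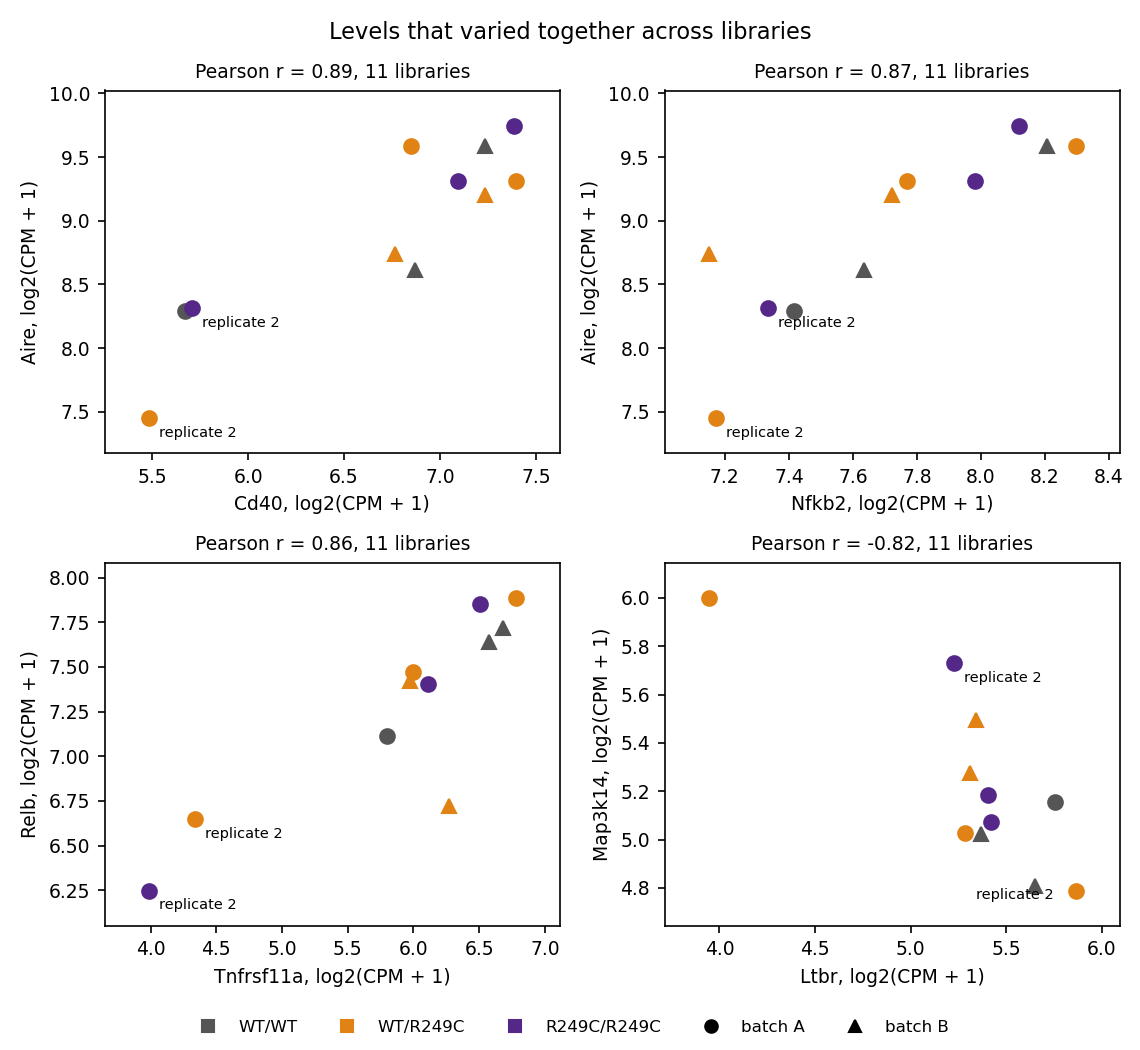
Level of one gene against another, both as log2(CPM + 1), in 11 libraries for Cd40 and Aire, Nfkb2 and Aire, Tnfrsf11a and Relb, and Ltbr and Map3k14 (panels, each with its Pearson r). Colours are genotypes, circles batch A and triangles batch B; the replicate 2 libraries of the variant genotypes, named in each panel, lie at the low end in the first 3 panels, and in the fourth 1 library of low Ltbr stands alone.

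Genes whose pattern over the 11 libraries was most like a member's were found by Pearson's r of log2(CPM + 1) among 10347 genes with a mean of at least 10 CPM, as a description with no test. Cd40 was followed most closely by Laptm5 and Cyba, both at r = 0.97, and Nfkb2 by Nkd2 (0.94) and Sspo (0.93). The nearest genes were Ufsp1 (0.93) and Mthfd1l (0.92) for Tnfrsf11a, Rnf183 (0.94) and Slc7a5 (0.93) for Tnfrsf11b, and Cyb561a3 (0.97) and Mrpl38 (0.95) for Relb. Plcb3 (0.96) was among the first 2 for Ltbr. For Map3k14 they were Styx (0.91) and Pcdhgb6 (0.90), for Traf6 Cybrd1 (0.92) and Klhl21 (0.91), and for Traf3 Adam23 (0.97) and Atp4a (0.93). No gene was among the first 2 of more than 1 member. Aire ranked 33 among the genes most like Nfkb2, 61 for Cd40, 96 for Tnfrsf11b, 255 for Tnfrsf11a and 291 for Relb. It ranked 933 for Traf3, 1417 for Traf6, 3174 for Map3k14 and 8850 for Ltbr.

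The wider pathway had 0 calls, like the members, but edgeR and limma called 0 of all genes tested in every comparison. Of 61 listed genes in 6 groups (ligands, other receptors of the TNF family, adaptors and brakes, kinases, canonical NF-kB factors and inhibitors, and NF-kB target genes), 58 were tested against WT/WT and 56 between the variant genotypes, and edgeR, DESeq2 and limma called 0 in each comparison. In edgeR, at an unadjusted p under 0.05 there were 4 of 58 for R249C/R249C against WT/WT, 6 of 58 for WT/R249C against WT/WT and 3 of 56 for R249C/R249C against WT/R249C, beside 3.21%, 3.48% and 1.08% of all genes tested. Each of these shares was above that of all genes, while 0 of the 9 members had such a p, and the difference was not tested. Median log2 fold changes were 0.27, 0.11 and 0.16 in the same order, beside -0.02, 0.02 and 0.01 over all genes. For batch B against batch A there were 4 of 58, beside 3.58% of all genes, with a median of 0.25 beside -0.01.

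The genes named from these lists had the smallest p-values and did not pass the adjusted test, with an edgeR adjusted p of at least 0.999 in each. Among the receptors, Tnfrsf12a, the receptor of TWEAK, had means of 16.1 ± 2.94 CPM for WT/WT, 29.6 ± 8.27 CPM for WT/R249C and 17.1 ± 3.88 CPM for R249C/R249C. Tnfrsf18, which encodes GITR, was at 4.35 ± 3.04, 5.20 ± 1.50 and 11.8 ± 2.50 CPM, with all 3 R249C/R249C libraries above the others. Ranges of R249C/R249C did not overlap those of WT/WT for 8.1% of all genes tested. For WT/R249C of batch A this share was 8.85%, and the gene was picked by its p-value. Tnfrsf25 had 0 counts in 7 of 11 libraries: all 5 of WT/R249C, WT/WT replicate 2 and R249C/R249C replicate 2. In WT/R249C this allows 0.0211 to 0.0495 CPM per library. It was at 2.52, 0 and 1.08 CPM in WT/WT, a mean of 1.20 ± 1.26 CPM, and at 0.658, 0 and 1.94 CPM in R249C/R249C. Tnfrsf1b, the second receptor of TNF, was at 13.4 ± 5.46, 8.99 ± 6.02 and 6.12 ± 1.90 CPM.

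Among the adaptors, Traf5 had means of 17.5 ± 5.56 CPM for WT/WT, 14.9 ± 2.99 CPM for WT/R249C and 9.19 ± 2.49 CPM for R249C/R249C, and a log2 fold change of -1.17 for R249C/R249C against WT/WT. Traf2, which works with TRAF3 in the complex that degrades NIK, was at 93.1 ± 12.9, 89.9 ± 14.2 and 107 ± 15.2 CPM, a log2 fold change of 0.43 in the same comparison. Ikbkb, the canonical IkB kinase, was at 142 ± 59.2, 136 ± 25.1 and 170 ± 12.8 CPM, and Chuk, the IkB kinase that phosphorylates p100, at 73.9 ± 37.3, 56.4 ± 5.39 and 74.8 ± 26.7 CPM. Rela, the main canonical subunit, was at 122 ± 6.25, 111 ± 20.4 and 92.0 ± 26.4 CPM.

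Of the 13 target genes, 10 had a positive log2 fold change for R249C/R249C against WT/WT and 10 for WT/R249C against WT/WT, with medians of 0.60 and 0.46, beside 13229 and 13895 positive values among all 26980 genes. These comparisons share the 3 WT/WT libraries. Between the variant genotypes 7 of the 13 were positive, with a median of 0.10, and for batch B against batch A 11 of 13, with a median of 0.45. Of the 12 markers of cortical epithelium, edgeR called 0. In both contrasts with WT/WT 11 of the 12 were positive, with medians of 0.72 and 0.64. For batch 10 of 12 were positive, with a median of 0.61, and between the variant genotypes 8 of 12, with a median of 0.06. At an unadjusted p under 0.05 in edgeR there were 5 in each contrast with WT/WT, 4 for batch and 0 between the variant genotypes. The shares of all genes tested were 3.21% for R249C/R249C and 3.48% for WT/R249C against WT/WT, 3.58% for batch and 1.08% between the variant genotypes. The part of the cortical markers in the values of the target genes was not tested. Vcam1, an adhesion molecule, was at 204, 229 and 368 CPM in WT/WT, at 499, 371, 317, 459 and 405 CPM in WT/R249C and at 373, 320 and 338 CPM in R249C/R249C. Il15, a cytokine, was at 11.3 ± 7.74, 17.3 ± 7.88 and 15.9 ± 0.524 CPM, and Cxcl10, a chemokine, at 104 ± 33.4, 161 ± 65.3 and 128 ± 11.5 CPM. For each of the 3 genes the lowest library was WT/WT replicate 1, and their ranges overlapped between genotypes.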

How the data were processed

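The authors deposited a table of whole-number counts per gene, not normalized, in which each library is a column. HISAT2 and StringTie, with FastQC, and the build mm39 are named in the submitters' processing notes; the annotation release, the use of strand and how counts were derived are not given in the sources used here. Columns of batch A carry the word trimmed. Symbols, exon lengths and overlaps between exons came from GENCODE on GRCm38, whose coordinates served only for lengths and overlaps. CPM were computed over column totals. Differences were tested with edgeR 4.0.16 (TMM, filterByExpr, robust quasi-likelihood fit, two-sided, Benjamini-Hochberg over all genes, threshold 0.05) in R 4.3.3: all 11 libraries with a batch term for the contrasts with WT/WT and for batch, and the 6 libraries of batch A for R249C/R249C against WT/R249C. Fold changes are thus batch-adjusted and CPM means are not. Alternatives were limma 3.58.1 (voom, quality weights) and DESeq2 1.42.0. Correlations and their permutations were computed with numpy 2.4.6, with ranks from scipy 1.17.1. The edgeR fit and the correlations were tested on simulated data. The labels number the libraries as biological replicates but tie none to a named mouse, so p-values measure the spread between libraries; counting limits (3 counts for a count of 0) cover counting error only. The members and lists were chosen with earlier results of these data known. Named genes are the members, Aire, up to 4 genes per pathway list of smallest unadjusted p (not all printed) and the 2 genes most like each member, leaving out Gm and Rik names, Xist and Y-linked genes. The values of some genes under these rules are not reported here.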

Additional observations from a re-analysis of the deposited data

How the results depend on the processing

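No member was called under any of the 666 alternative values of its 36 results, but 110 of these values changed sign, in 27 of the results. Values are log2 fold changes. DESeq2 called 408 genes for R249C/R249C against WT/WT, 276 for WT/R249C against WT/WT, 33 for R249C/R249C against WT/R249C and 181 for batch B against batch A, where edgeR and limma called 0. The correlations that passed went from 15 to 2 within batch A, to 0 without both replicate 2 libraries (an alternative chosen after seeing the data), and to between 6 and 17 when single libraries were left out. Residuals after the batch mean gave 17. By rho, 3 passed, against 12 on those residuals, 2 on log2 CPM by TMM, 0 within batch A and 0 to 6 with single libraries left out.
With the libraries of contradicting labels left out, signs changed for R249C/R249C against WT/WT in Tnfrsf11a (0.10), Tnfrsf11b (0.082) and Relb (0.21), for WT/R249C against WT/WT in Tnfrsf11a (0.14), Tnfrsf11b (0.057), Relb (0.25) and Nfkb2 (0.34), and for batch in Nfkb2 (0.47), with the median of all genes at 0.20, 0.28 and 0.21. With these libraries counted as R249C/R249C, signs changed for Nfkb2 (-0.081) and Traf6 (0.23) against WT/WT, Tnfrsf11b (-0.032) and Nfkb2 (-0.018) against WT/R249C, and Traf6 (0.15) and Traf3 (-0.20) for batch. In this alternative the contrast against WT/R249C was fitted over all 11 libraries with a batch term. The main fit used the 6 libraries of batch A, so labels and set of libraries changed together. Within batch A the changed signs were, for R249C/R249C against WT/WT, Tnfrsf11a (0.10), Tnfrsf11b (0.087) and Relb (0.22), and for WT/R249C Tnfrsf11a (0.14), Tnfrsf11b (0.055), Relb (0.25) and Nfkb2 (0.34); within batch B it was Cd40 (-7.91e-05).
Limma changed, against WT/WT for R249C/R249C, Tnfrsf11b (0.20), Relb (0.0014), Traf6 (0.33) and Traf3 (0.15), against WT/R249C Tnfrsf11a (0.43), Ltbr (-0.13) and Relb (0.17), and for batch Nfkb2 (0.21), Map3k14 (0.31) and Traf6 (0.26). Without both replicate 2 libraries the changes were Tnfrsf11a (0.11), Tnfrsf11b (0.083) and Relb (0.11) for R249C/R249C against WT/WT, Tnfrsf11b (-0.059), Relb (0.042) and Map3k14 (-0.37) against WT/R249C, and Tnfrsf11b (-0.081), Ltbr (0.23), Relb (-0.11) and Traf3 (-0.12) for batch.
With the title's replicate number as a block, 0 genes were called and the changed signs were, for R249C/R249C against WT/WT, Tnfrsf11a (0.47), Tnfrsf11b (0.71), Relb (0.56) and Traf3 (0.27), and for WT/R249C Tnfrsf11a (0.62), Tnfrsf11b (0.64), Relb (0.68), Nfkb2 (0.45) and Map3k14 (-0.044), with the median of all genes at 0.30 and 0.33. Cd40 was 1.77 (edgeR adjusted p 0.919) and 1.55 (adjusted p 0.912) under the block. In each of these contrasts 1 of 9 members had an unadjusted edgeR p under 0.05, beside 3.94% and 3.72% of all genes. The labels tie no number to a named mouse. Deviations of same-numbered WT/R249C and R249C/R249C libraries of batch A correlated at 0.13, 0.07 and 0.04, and each correlated best with its own number. For WT/R249C replicate 3 this was 0.037, beside 0.031 with R249C/R249C replicate 2, and the match of numbers was not tested. WT/WT replicates 1, 2 and 3 carry the library numbers 3, 4 and 5. The title's number thus sets WT/WT libraries of batch B beside variant libraries of batch A, so the blocked values are not those of known pairs. The cause of these changes was not tested.
Leaving out each library in turn changed signs within the ranges that follow. For R249C/R249C against WT/WT they were -0.69 to 0.29 for Tnfrsf11a, -0.67 to 0.26 for Tnfrsf11b, -0.41 to 0.029 for Ltbr, -0.54 to 0.21 for Relb, -0.29 to 0.30 for Nfkb2, -0.36 to 0.26 for Traf6 and -0.46 to 0.071 for Traf3. For WT/R249C against WT/WT they were -0.34 to 0.10 for Tnfrsf11b, -0.52 to 0.041 for Relb and -0.43 to 0.11 for Nfkb2. For R249C/R249C against WT/R249C they were -0.56 to 0.48 for Tnfrsf11a, -0.56 to 0.37 for Tnfrsf11b, -0.22 to 0.69 for Cd40, -0.27 to 0.62 for Ltbr, -0.44 to 0.31 for Relb, -0.13 to 0.33 for Nfkb2 and -0.16 to 0.43 for Map3k14. For batch they were -0.10 to 0.34 for Tnfrsf11b, -0.30 to 0.21 for Ltbr, -0.23 to 0.27 for Relb, -0.28 to 0.20 for Nfkb2, -0.20 to 0.16 for Map3k14, -0.44 to 0.079 for Traf6 and -0.41 to 0.35 for Traf3.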
